A study of Mus musculus with 2 samples.

Results

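The cells described here are the regulatory T cells (Tregs) of B16 melanoma tumors, picked out cell by cell through their Foxp3 RNA. They were chosen by measured values: a cell was taken if it held at least 1 UMI (unique molecular identifier, the tag that marks each captured RNA molecule) of Foxp3 and at least 1 of Cd3e or Cd4, and no UMI of Cd8b1, Cd79a or Csf1r, which mark CD8 T cells, B cells and macrophages. The rule found 187 cells among 13040 cells kept after filtering, 70 of 7433 in the h219-LLG library and 117 of 5607 in the control library. Foxp3 is ENSMUSG00000039521, on chromosome X from 7573644 to 7595245 on the plus strand of mm10. Its level, and those of the other genes of the rule, are therefore a description of how the cells were selected and not a finding.

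Foxp3 is the transcription factor that sets the identity of Tregs, the CD4 T cells that restrain other immune cells. Tregs carry the high-affinity interleukin-2 receptor, take up the interleukin-2 that other T cells make, strip costimulatory ligands from antigen-presenting cells through CTLA4 and release or activate suppressive factors such as interleukin-10 and TGF-beta. Resting Tregs recirculate through lymph nodes with the help of CCR7 and S1PR1. Effector Tregs enter tissues and tumors, and turn on genes such as Icos, Klrg1, Il1rl1, Areg and Rora. In many tumors they dampen the local T cell response, which is why their number and state are of interest when an inhibitory receptor is blocked.

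The study sorted live CD45+ leukocytes out of B16 tumors grown under the skin and profiled them by 3' scRNAseq in droplets. The mice of both groups were Vav-cre human LAIR1 transgenic and mLAIR1-/-, aged 6 to 8 weeks by the labels. In these C57BL/6 mice the human LAIR1 transgene is switched on in blood-forming cells by Cre under the Vav promoter, and the mouse receptor is lost. One group received h219-LLG, a humanized antibody that blocks human LAIR1 and carries an Fc that does not engage effector functions, and the other received the isotype control antibody. LAIR1 is an inhibitory receptor for collagen on leukocytes. There was 1 library per antibody, and the sources used here do not say how many mice were pooled in each. With 1 library a group no test between antibodies is possible, cells are not replicates, and mouse, sort and library differences cannot be told apart from the antibody. All intervals are at 95% and cover counting error only.

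The selected cells had a median of 5946 UMIs with h219-LLG (from 1569 to 58522) and 7112 with the control (from 1712 to 38301), and a median of 1957 and 2256 genes. Their median share of mitochondrial UMIs was 3.53% and 2.82%. Over all selected cells this gave 641528 UMIs with h219-LLG and 1072266 with the control. Because the control cells were deeper, shares of cells with a UMI are also given after each cell was thinned to 2000 UMIs, which left out 3 and 1 cells. The libraries shared 13 cell barcodes, none of which belonged to a selected cell. Mouse Lair1 was near the floor, with 2 UMIs in 2 cells with h219-LLG and 7 UMIs in 1 control cell. The sources used here do not say where the knockout allele breaks the gene relative to the counted 3' end, so this count does not test the genotype. Human LAIR1 was not measured, since the gene list holds mouse genes only.

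Markers outside the rule fitted the Treg label in both libraries. Ikzf2, which encodes the Treg transcription factor Helios, had a UMI in 58 of 70 cells (82.9%, exact Clopper-Pearson interval 72.0 to 90.8%) with h219-LLG and in 107 of 117 (91.5%, 84.8 to 95.8%) in the control. In B cells, which should lack it, the shares were 1.30% and 0.85%, at a median depth of 3562 and 4277 UMIs. Ctla4, the coinhibitory receptor, was found in 61 of 70 (87.1%) and 108 of 117 cells (92.3%), against 4.0% and 3.46% of B cells. Il2ra, the alpha chain of the interleukin-2 receptor, was found in 38 of 70 (54.3%) and 69 of 117 cells (59.0%), against 1.10% and 0.85% of B cells. Tnfrsf18, which encodes GITR, was found in 71.4% and 74.4%, and 6.64% and 4.82% of B cells. All 70 and 117 cells had a UMI of Cd3e, Cd3d or Cd3g, although 11 and 11 had none of Cd3e and 29 and 26 had none of Cd4. Foxp3 itself was seen in 0.489% of B cells with h219-LLG and 0.510% in the control.

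**Figure D1:**
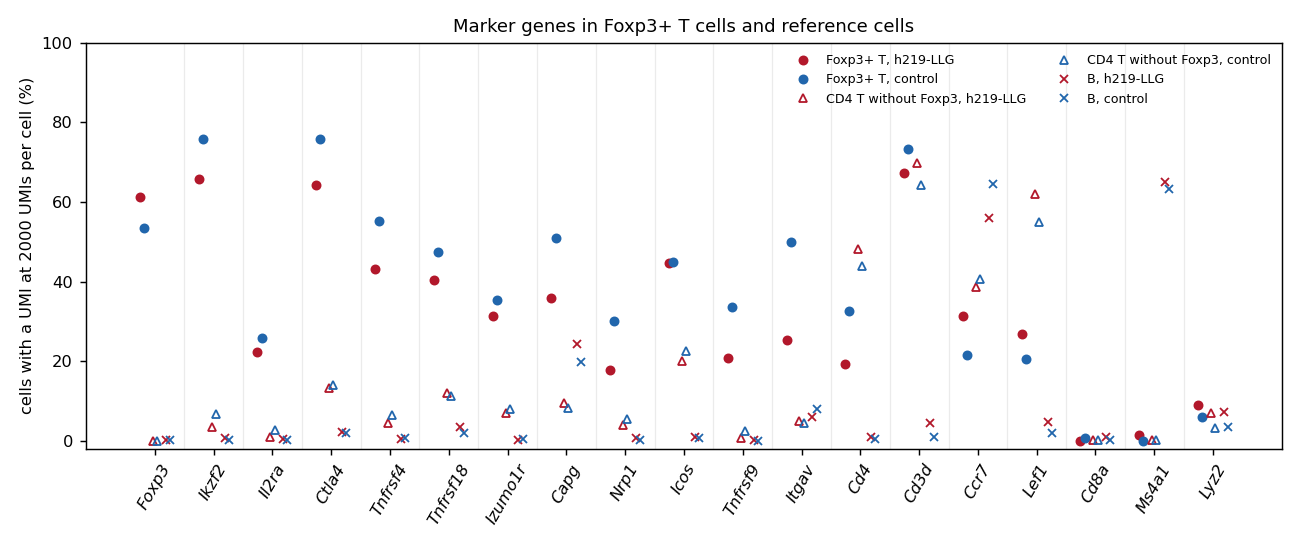
Share of cells with a UMI of each gene (y axis, percent) after thinning to 2000 UMIs per cell, in Foxp3+ T cells (filled circles), CD4 T cells without Foxp3 (triangles) and B cells (crosses), red for h219-LLG and blue for control. Foxp3+ T cells stand above the other cells for Ikzf2 (65.7% and 75.9%) and Ctla4 (64.2% and 75.9%), and lie below the CD4 T cells without Foxp3 for Lef1.

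Most of the selected cells held few Foxp3 molecules. With h219-LLG 26 cells held 1 UMI and 44 held 2 or more, and in the control 38 and 79 did. The median was 2 and the highest count 12 in both libraries. Foxp3 stood at 312 CPM (UMIs per 1000000 UMIs of the selected cells) with h219-LLG and 325 CPM in the control. Cells just inside the threshold, with 1 Foxp3 UMI, had Ikzf2 in 17 of 26 (65.4%) and 32 of 38 cells (84.2%), and Ctla4 in 76.9% and 92.1%. Cells just outside it, which passed every other condition but had no Foxp3 UMI, had Ikzf2 in 139 of 1407 (9.88%) and 180 of 1287 cells (14.0%), and Ctla4 in 21.6% and 27.0%. Most cells with 1 Foxp3 UMI carried the Treg markers, and a minority of cells with none carried them too.

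RNA of other cell types was present in some of the selected cells. At least 3 UMIs of 35 marker genes of other lineages were found in 15 of 70 cells with h219-LLG and 17 of 117 in the control. The 6 B cell genes summed to 2603 CPM and 1948 CPM, with 0 to 586 and 0 to 706 UMIs per cell. Nearly all of that was Cd74 and H2-Aa, the MHC class II genes that dendritic cells and macrophages also express, and Ms4a1, which encodes the B cell surface protein CD20, held 2 UMIs with h219-LLG and 1 in the control. The 12 myeloid genes gave 511 CPM and 570 CPM, with 0 to 147 and 0 to 204 UMIs per cell and S100a8 at 0 with h219-LLG. The 8 dendritic genes gave 560 CPM and 316 CPM, with Siglech at 0 with h219-LLG and Cd209a at 0 in the control, and Ccl22 held 159 UMIs in 4 cells and 8 UMIs in 2 cells. Bst2, left out of the 35 genes as shared between cell types, held 69 of these 359 UMIs with h219-LLG and 181 of 339 in the control. The 6 NK genes gave 125 CPM and 78.3 CPM, and 77 of their 80 UMIs with h219-LLG lay in 1 cell. The 5 melanoma genes held 7 and 13 UMIs, with Tyr at 0 in both libraries. One cell of the h219-LLG library held 4292 of the 4297 hemoglobin UMIs there, against 22 in the control. Cd8a was found in 0 of 70 cells, which allows up to 4.29% by the limit of 3 counts and 5.13% by the exact interval, and in 4 of 117 control cells (3.42%). The part of these cells in the results was not tested other than by leaving them out. Many of the list medians and counts that moved without them are given beside the results, but not all. Those of chemokines and helper lineage factors are given in the last section.

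Foxp3+ T cells made up a smaller share of the sorted cells with h219-LLG. They were 0.942% of kept cells (0.735 to 1.19%) against 2.09% (1.73 to 2.50%) in the control, a ratio of 0.451 (0.336 to 0.606). Of CD4 T cells, defined by a UMI of both Cd3e and Cd4, they were 30 of 598 (5.02%) against 80 of 652 (12.3%), a ratio of 0.409 (0.273 to 0.613). CD4 T cells without Foxp3 were 7.64% of kept cells against 10.2%, a ratio of 0.749 (0.670 to 0.837). The share of Foxp3+ cells was lower both among CD4 T cells and among all kept CD45+ cells. These are shares of sorted cells, and the number of Tregs per tumor was not measured.

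The control cells were deeper, and a deeper cell gives more chance to catch a Foxp3 UMI. With every cell thinned to 2000 UMIs the rule found 35 of 7094 cells (0.493%) and 46 of 5366 (0.857%), a ratio of 0.576 (0.371 to 0.892). With a stricter limit of 2 Foxp3 UMIs the ratio was 0.420, and with a wider gate that also took cells with both Ikzf2 and Il2ra it was 0.463, from 92 and 150 cells. Requiring a Cd4 UMI gave the lowest ratio, 0.340 (0.235 to 0.491). Leaving out cells with 3 or more UMIs of other lineages gave 0.415, from 55 and 100 cells.

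The rule left out a number of cells that had Foxp3. Of 154 kept cells with a Foxp3 UMI in the h219-LLG library 70 passed, and of 203 in the control 117 did. The part that passed was smaller with h219-LLG, and no alternative setting lifted the exclusions by Cd8b1, Cd79a and Csf1r. Cd8b1 alone or with other genes removed 35 and 39 cells, Cd79a 29 and 16, Csf1r 32 and 24, and the lack of both Cd3e and Cd4 25 and 34. The last condition was the only failure for 12 and 23 cells, of which 10 and 18 had Cd3d or Cd3g.

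**Figure D2:**
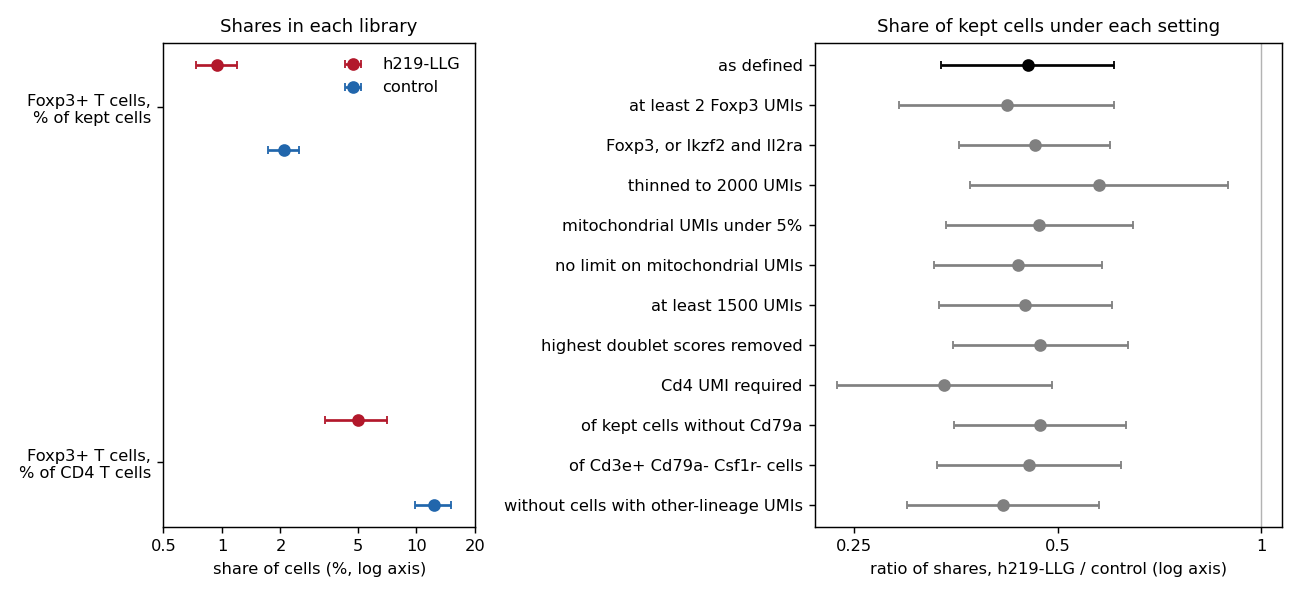
Left, share of cells (percent, log axis) with exact 95% intervals in the h219-LLG library (red) and control library (blue), for Foxp3+ T cells among kept cells and among CD4 T cells. Right, ratio of the shares of kept cells (h219-LLG over control, log axis) with 95% intervals as defined (black) and under the other settings (grey), which run from 0.340 to 0.576 and all lie below 1.

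The program that sets Foxp3+ cells apart from CD4 T cells without Foxp3 was present in both libraries. The comparison cells, 568 with h219-LLG and 572 in the control, had Cd3e and Cd4 and no Foxp3. They can include Tregs in which Foxp3 was missed. Of CD4 T cells, 30 of 598 with h219-LLG and 80 of 652 in the control had Foxp3. With Foxp3 or both Ikzf2 and Il2ra there were 35 and 97. The cells added by Ikzf2 and Il2ra are comparison cells, and there were more of them in the control. Among genes with at least 50 UMIs over both sets, 28.9% were at least 1.5-fold higher in Foxp3+ cells and 9.55% at least 1.5-fold lower with h219-LLG. In the control the shares were 28.5% and 9.44%. Of the Treg identity list, genes long tied to the Treg lineage, 10 of 10 measured with h219-LLG and 11 of 11 in the control were at least 1.5-fold higher, and the median log2 ratios were 2.58 and 2.95.

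Ikzf2 was at 792 CPM in Foxp3+ cells and 43.4 CPM in the comparison cells with h219-LLG, 18.2 times as high (15.2 to 22), and at 1098 CPM and 80.1 CPM in the control, 13.7 times as high (12.1 to 15.6). Il2ra was 21.9 times as high (15 to 32.6) with h219-LLG and 8.11 times (6.22 to 10.6) in the control. Ctla4 was 6.26 and 7.73 times as high. Tnfrsf4, which encodes the costimulatory receptor OX40, was 19.4 and 9.18 times as high. Tnfrsf9, which encodes 4-1BB, a costimulatory receptor of activated Tregs, was 24.7 times as high (16.4 to 38.3) and 27.3 times (20.1 to 37.9). Itgae, which encodes the CD103 integrin chain that binds E-cadherin, was 12.1 and 31.0 times as high. Among genes with at least 50 UMIs, found in at least 10 cells of the higher set and with at most 25% of its UMIs in 1 cell, all in each library, the 8 leading ones by the lower of the 2 ratios were Tnfrsf9, Ikzf2, Itgae, Tnfrsf4 and Il2ra, together with Osbpl3 (7.78 and 10.1), which encodes a lipid-binding protein, the transporter gene Slc22a15 (7.40 and 8.83) and Fam129a (8.04 and 7.39).

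Suppressive mediators were also higher in Foxp3+ cells, with 6 of 6 measured genes at least 1.5-fold higher with h219-LLG and 9 of 9 in the control. Genes of other lineages were higher in this comparison too. Of the myeloid list 5 of 5 and 7 of 7 measured genes were, with median log2 ratios of 0.87 and 1.28. Of the B cell list the 2 measured genes, Cd74 and H2-Aa, were in both libraries. The part of RNA from other cells in the ratios of the suppressive genes was not tested. Gzmb, which encodes the cytotoxic protease granzyme B, was 17 and 16 times as high. It was found in 12 of 70 and 32 of 117 cells, and much of its h219-LLG sum lay in 1 cell, as given below. Fgl2, which encodes a secreted inhibitory fibrinogen-like protein, was 7.23 and 17.1 times as high. Ebi3, a subunit of interleukin-35, was 19.5 and 17.9 times as high, but these ratios rest on few counts. Foxp3+ cells held 18 UMIs of it in 11 of 70 cells with h219-LLG and 38 UMIs in 26 of 117 in the control. Those counts alone lie below the minimum of 50 UMIs over both sets that a measured gene had to reach. Itgav, the integrin chain that helps to release active TGF-beta, was 6.27 (4.63 to 8.52) and 14.1 times (11.6 to 17.2) as high. Of the effector and tissue Treg list, 13 of 14 and 14 of 17 measured genes were at least 1.5-fold higher.

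Genes of naive and recirculating T cells were lower. In the resting and homing list 0 of 14 genes were at least 1.5-fold higher in either library, and the median log2 ratio was -1.74 and -2.04. Lef1, a transcription factor of naive T cells, was 0.199 and 0.210 times the level of the comparison cells. Igfbp4 was 0.122 and 0.118 times as high and Dapl1, another transcript of naive T cells, 0.0221 (3 UMIs, 0.00456 to 0.0650) and 0.126 times. Hs3st3b1 (0.0875 and 0.110) and Pydc3 (0.0352 and 0.124) were low as well, and Auts2 had 1 UMI with h219-LLG and 0 in the control. Ccr7 summed over cells was not low, at 1.38 and 0.92 times, from 286 UMIs in 30 of 70 cells and 428 UMIs in 41 of 117.

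**Figure D3:**
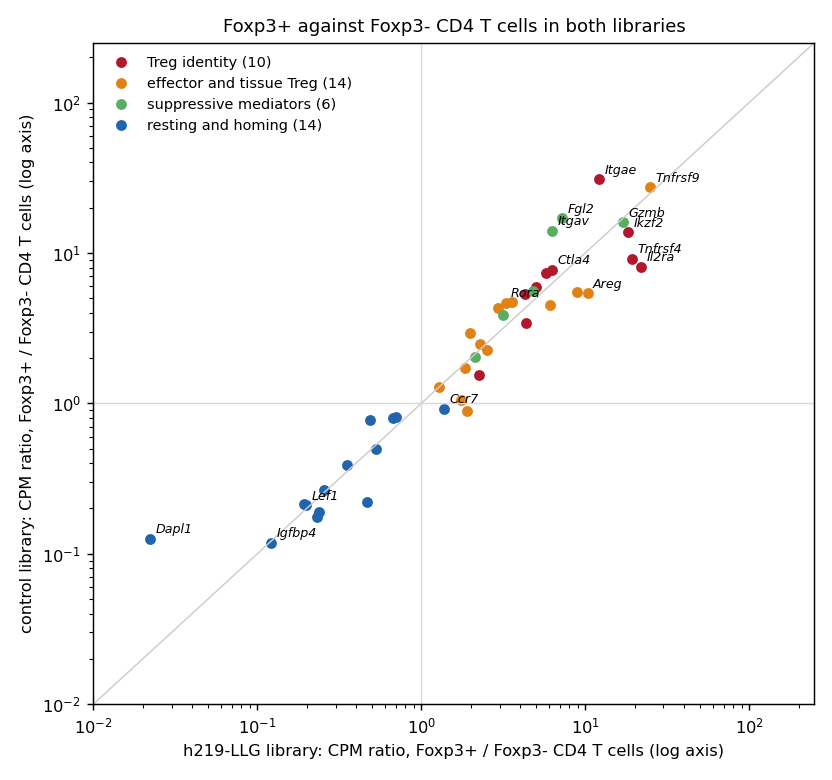
CPM of Foxp3+ T cells over CD4 T cells without Foxp3 in the h219-LLG library (x axis, log) and the control library (y axis, log), 1 point per gene with at least 50 UMIs in each library, colored by list. Treg identity and suppressive genes lie above 1 in both libraries, most resting and homing genes lie below 1, and Il2ra (21.9 and 8.11) and Tnfrsf4 (19.4 and 9.18) fall below the diagonal while Itgav (6.27 and 14.1) and Fgl2 (7.23 and 17.1) fall above it.

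Between the libraries, the expression of Foxp3+ cells was compared on UMIs summed over the cells. Of 4469 genes with at least 50 UMIs, 9.47% were at least 1.5-fold higher with h219-LLG and 10.4% at least 1.5-fold lower, and the median log2 ratio was 0.02. Every list below is read against those shares.

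Treg identity genes leaned lower with h219-LLG, with 10 of 11 measured genes lower and 1 higher, most of them short of the fold. None of 11 measured genes was at least 1.5-fold higher and 2 were lower, with a median log2 ratio of -0.27 (-0.44 for the same genes in CD4 T cells without Foxp3, and -0.01 in Foxp3+ cells when those with other-lineage UMIs were left out). Ctla4 had 396 UMIs (617 CPM) with h219-LLG and 1103 UMIs (1029 CPM) in the control, a ratio of 0.600 (0.534 to 0.674). Lrrc32, which encodes GARP, the anchor of latent TGF-beta on Tregs, was at 31.2 CPM and 71.8 CPM, a ratio of 0.434 (0.251 to 0.717). Ikzf2 was at 792 CPM and 1098 CPM, a ratio of 0.721 (0.649 to 0.801). Il2ra went the other way, at 220 CPM and 169 CPM, a ratio of 1.30 (1.04 to 1.63), while it was lower in CD4 T cells without Foxp3 (0.483). Tnfrsf4 was at 0.918 (0.809 to 1.04) in Foxp3+ cells, an interval that held 1, and at 0.434 in the cells without Foxp3. As given above, more of the cells without Foxp3 had both Ikzf2 and Il2ra in the control. Their part in the ratios of the cells without Foxp3 was not tested. Without cells holding other-lineage UMIs the log2 ratio of Ctla4 was -0.41, short of the fold.

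The effector and tissue Treg list was lower with h219-LLG. Of 16 measured genes 0 were higher and 9 were at least 1.5-fold lower, against 10.4% of all genes, and the median log2 ratio was -0.61. The same genes had a median of -0.60 in CD4 T cells without Foxp3. Without cells holding other-lineage UMIs 7 of 16 were lower past the fold and the median was -0.41, and with thinning 4 of 9 were and it was -0.47. Rora, a nuclear receptor of tissue T cells, was at 175 CPM with h219-LLG and 575 CPM in the control, a ratio of 0.303 (0.246 to 0.372), and 0.434 in CD4 T cells without Foxp3. Areg, the tissue-repair growth factor amphiregulin, was at 65.5 CPM and 208 CPM, a ratio of 0.315 (0.221 to 0.439), and 0.165 in the cells without Foxp3. Il1rl1, which encodes the interleukin-33 receptor ST2, had a ratio of 0.389 (0.226 to 0.638), and Klrg1 one of 0.418 (0.263 to 0.642). The share of cells with a Klrg1 UMI differed less, at 18.6% and 22.2%, and 7.46% and 8.62% after thinning. For Il1rl1 the shares were 11.4% and 20.5%, and 5.97% and 11.2% after thinning. The other genes past the fold were Tnfrsf1b (0.630), which encodes a TNF receptor that supports Tregs, Tnfrsf9 (0.647), Maf (0.615), Gata3 (0.665) and Penk. Of these, 4 fell short of the fold under some settings, where the log2 ratio reached -0.064 for Gata3, -0.29 for Maf, -0.37 for Tnfrsf1b and -0.53 for Tnfrsf9. Penk, which encodes the opioid precursor proenkephalin, had 8 UMIs in 3 cells against 236 in 10 cells, and 72.5% of the control UMIs lay in 1 cell. Batf (0.993), a transcription factor of tissue Tregs, had the highest ratio of the list, and the intervals of Batf, Prdm1 (0.942) and Icos (0.878) held 1.

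**Figure D4:**
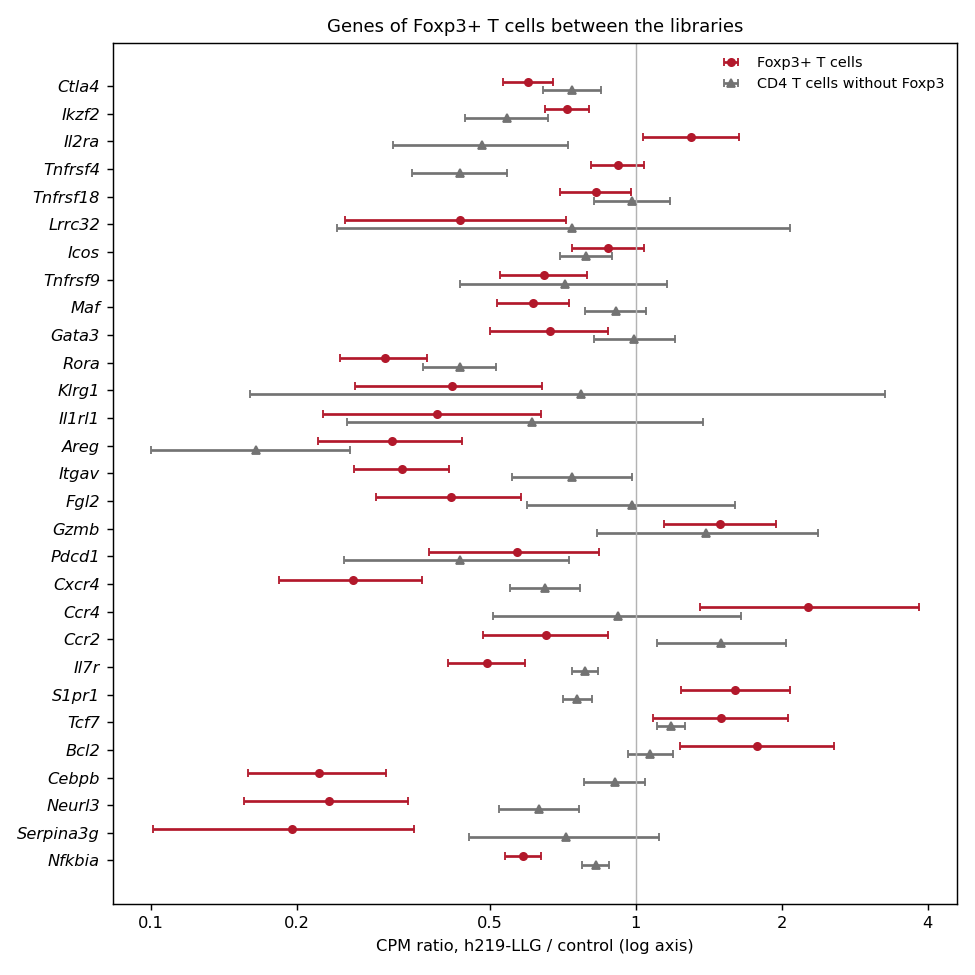
CPM ratio between libraries (h219-LLG over control, log axis) with 95% counting intervals for named genes, in Foxp3+ T cells (red circles) and in CD4 T cells without Foxp3 (grey triangles). Rora (0.303 and 0.434) and Areg (0.315 and 0.165) are low in both, Cebpb (0.222 and 0.905) and Itgav (0.330 and 0.740) are lower in Foxp3+ cells, and Il2ra (1.30 and 0.483) lies on opposite sides of 1.

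Suppressive mediators differed gene by gene. Of 8 measured genes 0 were at least 1.5-fold higher and 2 lower, with a median log2 ratio of -0.31, which was 0.01 over the 4 genes still measured with thinning. Itgav had 96 UMIs in 34 cells (150 CPM) with h219-LLG and 486 UMIs in 85 cells (453 CPM) in the control, a ratio of 0.330 (0.262 to 0.412). Its ratio in CD4 T cells without Foxp3 was 0.740, and relative to that the ratio in Foxp3+ cells was 0.446 (0.314 to 0.634). Fgl2 was at 68.6 CPM and 165 CPM, a ratio of 0.415 (0.292 to 0.581), against 0.981 in cells without Foxp3. Gzmb was at 171 CPM and 115 CPM, a ratio of 1.49 (1.15 to 1.95), but 41.8% of its UMIs with h219-LLG lay in 1 cell. Its log2 ratio was 0.04 without the top cell of each library and -0.36 without cells holding other-lineage UMIs. Tgfb1 (0.818), Nt5e (0.821), which encodes the ectoenzyme CD73, and Ebi3 (0.792) had intervals that held 1. Il10 was too sparse for the list, with 3 UMIs in 3 cells against 39 UMIs in 16 cells, a ratio of 0.129 (0.0254 to 0.404). Il12a had no UMI in either library.

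Checkpoint receptors, with Ctla4 among them, had 0 of 8 genes at least 1.5-fold higher and 2 lower, and a median of -0.08. Without cells holding other-lineage UMIs 1 of 6 was higher and 1 lower past the fold. Pdcd1, which encodes PD-1, was at 54.6 CPM and 96.1 CPM, a ratio of 0.568 (0.376 to 0.841), and 0.435 in CD4 T cells without Foxp3. Of 14 costimulation and TNF family genes 0 were higher and 3 were lower past that fold, with a median of -0.38 (-0.08 without cells holding other-lineage UMIs), among them Cd6, a T cell surface receptor, at 71.7 CPM and 147 CPM, a ratio of 0.487 (0.343 to 0.680) against 1.25 in cells without Foxp3.

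Homing and migration genes differed in both directions. Of 11 resting and homing genes 1 was at least 1.5-fold higher and 1 lower, with a median log2 ratio of 0.08. Without cells holding other-lineage UMIs 4 were higher and 1 lower, with a median of 0.26. S1pr1, the receptor for exit into lymph and blood, was at 187 CPM and 117 CPM, a ratio of 1.60 (1.24 to 2.08), against 0.757 in CD4 T cells without Foxp3. Tcf7, a transcription factor of resting T cells, fell just short of the fold at 1.497 (1.09 to 2.06), whereas Lef1 (1.13), Klf2 (1.13) and Ccr7 (1.12) had intervals that held 1. Il7r, the interleukin-7 receptor, was lower at 0.494 (0.410 to 0.591). Among 6 measured chemokine receptors, Cxcr4, the receptor for CXCL12, was at 65.5 CPM and 251 CPM, a ratio of 0.261 (0.184 to 0.362) against 0.65 in cells without Foxp3. Ccr2 had a ratio of 0.654 (0.484 to 0.877), against 1.5 in cells without Foxp3, but its log2 ratio was -0.048 as a mean over cells and -0.12 without cells holding other-lineage UMIs. Ccr4, a receptor by which Tregs enter tissues, was higher at 59.2 CPM and 26.1 CPM, a ratio of 2.27 (1.36 to 3.84), but not after thinning to 2000 UMIs, where its log2 ratio was -0.056.

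**Figure D5:**
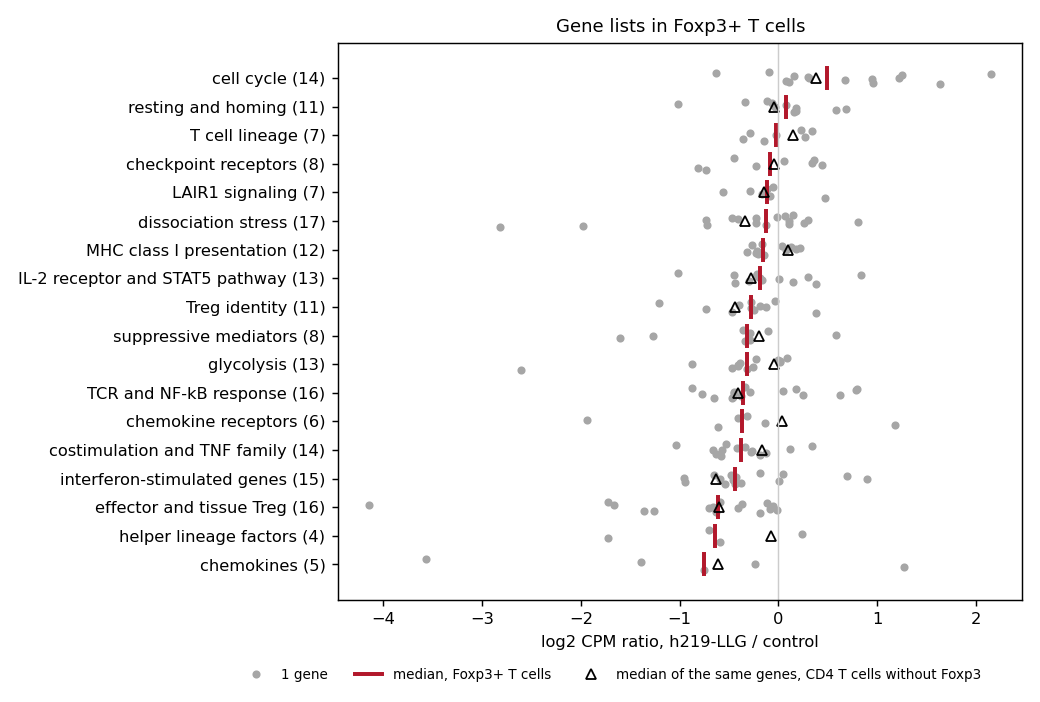
Log2 CPM ratio between libraries (h219-LLG over control, x axis) in Foxp3+ T cells for each gene list with at least 4 measured genes (number in parentheses). Grey points are genes, red bars the median of a list and open triangles the median of the same genes in CD4 T cells without Foxp3, which for the effector and tissue Treg list lie at -0.61 and -0.60.

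With all selected cells and all UMIs, signaling lists were close to the background or mixed. Of 13 genes of the interleukin-2 receptor and STAT5 pathway 1 was at least 1.5-fold higher and 1 lower, with a median of -0.19 (-0.0074 without cells holding other-lineage UMIs). Bcl2, the survival factor, was at 101 CPM and 56.9 CPM, a ratio of 1.78 (1.24 to 2.57), while Stat5a (0.893) and Stat5b (1.01) had intervals that held 1. Of 16 T cell receptor and NF-kB response genes 3 were higher and 3 lower, with a median of -0.36. Without cells holding other-lineage UMIs 0 of 14 were higher and 4 lower, with a median of -0.33. With thinning 0 of 9 were higher and 3 lower, with a median of -0.50. Nfkbia, the NF-kB inhibitor that NF-kB itself induces, was at 1091 CPM and 1861 CPM, a ratio of 0.586 (0.537 to 0.639), against 0.827 in cells without Foxp3. Nfatc1 was lower at 0.547 (0.362 to 0.808), and Relb, an NF-kB subunit, was higher at 1.73 (1.20 to 2.49) with 29.7% of its UMIs in 1 cell and a log2 ratio of 0.17 without cells holding other-lineage UMIs. Genes of the pathway downstream of LAIR1 showed no member past the fold, 0 of 7, with a median of -0.11, while 1 was higher and 1 lower without cells holding other-lineage UMIs. Ptpn6, which encodes the phosphatase SHP-1 that LAIR1 recruits, had a ratio of 1.38 (0.924 to 2.06), and Ptpn11, which encodes SHP-2, 0.944 (0.605 to 1.45).

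Of 13 glycolysis genes 0 were at least 1.5-fold higher and 2 lower, with a median of -0.32 (-0.55 without cells holding other-lineage UMIs, where 5 of 10 were lower). Aldoa, which encodes aldolase, was at 316 CPM and 582 CPM, a ratio of 0.544 (0.462 to 0.638) against 0.942 in cells without Foxp3. Slc2a1, the glucose transporter GLUT1, had 7 and 71 UMIs, but 60.6% of the control UMIs lay in 1 cell. Of 15 interferon-stimulated genes 2 were higher and 4 lower, and their median moved from -0.44 to 0.13 with thinning. Without cells holding other-lineage UMIs 1 of 13 was higher and 4 were lower. In 12 genes of MHC class I presentation none passed the fold, and 1 was lower without cells holding other-lineage UMIs. Of 17 dissociation stress genes, which respond to tissue handling, 1 was higher and 4 lower, with a median of -0.12 (-0.34 in cells without Foxp3). Helper cytokines were too sparse, with 0 of 11 measured.

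Cycling cells made up a larger share of Foxp3+ cells than of CD4 T cells without Foxp3, and which library had the larger share of cycling Foxp3+ cells changed with depth. At least 2 UMIs of 7 proliferation genes were found in 12 of 70 cells (17.1%, 9.18 to 28.0%) with h219-LLG and 27 of 117 (23.1%, 15.8 to 31.8%) in the control. After thinning they were 7 of 67 (10.4%, 4.30 to 20.3%) and 7 of 116 (6.03%, 2.46 to 12%). In CD4 T cells without Foxp3 the shares were 3.70% and 5.59%, and after thinning 1.43% and 1.57%. Summed over cells, 7 of 14 cell cycle genes were at least 1.5-fold higher with h219-LLG and 1 lower. Mki67 was at 237 CPM and 76.5 CPM, a ratio of 3.10 (2.35 to 4.10), but 33.6% of its UMIs with h219-LLG lay in 1 cell. The median log2 ratio of the list fell from 0.49 to -0.10 with thinning, and without cells holding other-lineage UMIs 2 of 10 genes were higher past the fold.

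The genes with the lowest and highest ratios were taken among those with UMIs in at least 10 cells of the higher library and at most 25% of these in 1 cell, which leaves out Penk, Slc2a1, Mki67 and others. The 8 lowest were Plac8, Serpina3g, Cebpb, Ipmk, Neurl3, Pgm2l1, Cxcr4 and Zswim6, and being chosen for their ratio they are a description. Cebpb, a transcription factor of stress and cytokine responses, had 44 UMIs in 22 cells (68.6 CPM) with h219-LLG and 331 UMIs in 76 cells (309 CPM) in the control, a ratio of 0.222 (0.158 to 0.305). Its ratio in CD4 T cells without Foxp3 was 0.905. Neurl3, a ubiquitin ligase gene, was at 49.9 CPM and 214 CPM, a ratio of 0.234 (0.156 to 0.339). Serpina3g, a protease inhibitor gene of activated T cells, was at 20.3 CPM and 104 CPM, a ratio of 0.196 (0.101 to 0.349), against 0.717 in cells without Foxp3. Plac8 had the lowest ratio of these, 0.182 (0.116 to 0.276), but 48.0% of its h219-LLG UMIs lay in 1 cell. Ipmk (0.231), an inositol phosphate kinase gene, Pgm2l1 (0.235) and Zswim6 (0.279) rested on 8, 8 and 9 UMIs in the h219-LLG library.

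The 8 highest ratios under the same limits belonged to genes of low level. Parl, which encodes a mitochondrial rhomboid protease, was at 63.9 CPM and 20.5 CPM, a ratio of 3.11 (1.81 to 5.49), against 1.00 in CD4 T cells without Foxp3. Smg5, of nonsense-mediated RNA decay, had a ratio of 2.82 (1.55 to 5.26; log2 1.49, and 0.71 as a mean over cells) and Pikfyve, a lipid kinase gene, 2.31 (1.27 to 4.26). Pou2f2 (2.40, 1.57 to 3.71) and Tnfrsf13b (2.31, 1.45 to 3.70), which are best known from B cells, had ratios of 1.78 and 1.55 in CD4 T cells without Foxp3. Pstk (2.36), Atxn2 (2.36) and Arhgap1 (2.40) had 31, 31 and 33 UMIs with h219-LLG against 22, 22 and 23 in the control, and with thinning the log2 ratio of Arhgap1 turned to -0.79 and that of Atxn2 fell to 0.38.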

How the data were processed

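The deposited files hold unnormalized UMI counts of each gene in each called cell. The submitters' processing notes name Cell Ranger 5.0.0 and mm10, and no source used here names the annotation release. Gene coordinates are those of GENCODE vM21, matched by Ensembl identifier for 309 of 309 genes. The library of each antibody was taken from the labels.

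Barcodes with at least 500 UMIs, 200 genes and under 10% mitochondrial UMIs were kept. The members and the 27 gene lists were chosen with earlier results of these data known. Some listed genes, and the planned cell subsets defined with them, are not reported here. No cell was removed as a doublet in the main values. A score from 2 simulated doublets per cell, 30 components and 30 neighbors marked 524 and 275 cells, 1 and 4 of them members, and leaving these out was an alternative. UMIs were summed over cells and divided by their total (CPM). Genes with at least 50 UMIs over both sets were measured, and past the fold means at least 1.5 times. Intervals are exact for shares, Poisson or binomial for counts and logarithmic for ratios of shares. Sums over few cells are precise only to the intervals given, and 3 counts set the limit of a 0. No p-value was computed.

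Named genes were the 8 highest and 8 lowest ratios between libraries and the 8 highest and 5 lowest against CD4 T cells without Foxp3, with UMIs in at least 10 cells of the higher group and at most 25% in 1 cell, plus the ends of each list. Mitochondrial, ribosomal, hemoglobin, receptor and predicted genes were left out of the first. Not every such gene is printed. Alternatives were other cell filters, Foxp3 limits, depths, scalings and count minimums. Python 3.11.15, numpy 2.4.6, scipy 1.17.1, pandas 2.3.3, scikit-learn 1.9.0 and matplotlib 3.10.9 were used, and the steps were tested on simulated data.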

Additional observations from a re-analysis of the deposited data

How the results depend on the processing

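The ratio of Foxp3+ T cells among kept cells stayed below 1 in 11 of 11 alternatives. Among CD4 T cells it stayed between 0.298 and 0.418. Depth, with 70 and 117 cells, limits all gene values. No replicate could be left out, since each antibody has 1 library. No paired analysis was possible because each group has 1 library and no test was run. The settings without cells holding 3 or more UMIs of other lineages were chosen after seeing the data.

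Between libraries, the genes at least 1.5-fold higher numbered 55 of 1077 (5.11%) with thinning to 2000 UMIs, 193 of 3047 (6.33%) without cells holding other-lineage UMIs, 1110 of 7143 (15.5%) and 160 of 2555 (6.26%) with at least 20 and 100 UMIs, and 96 (2.15%) at a fold of 2. Those lower numbered 132 (12.3%) with thinning, 889 (12.4%) and 245 (9.59%) with at least 20 and 100 UMIs, and 145 (3.24%) at a fold of 2. Against CD4 T cells without Foxp3, the genes higher with h219-LLG and in the control numbered 1170 and 1291 with at least 100 UMIs, 816 and 898 at a fold of 2, and 710 and 849 with thinning. Those lower numbered 404 and 425, 248 and 252, and 377 and 395.

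With thinning, list medians (log2) moved to -2.38 for chemokines, 0.13 for interferon-stimulated genes, -0.10 for cell cycle and -0.84 for glycolysis, and Arhgap1 (-0.79), Bcl2a1d (-0.14), Ccr4 (-0.056) and Tyms (0.31) turned sign. Without cells holding other-lineage UMIs, chemokines moved from -0.75 (5 genes measured, 1 higher and 3 lower past the fold) to -1.999 (3 measured, 3 lower). Helper lineage factors moved from -0.64 (4 measured, 3 lower) to -0.29 (3 measured, 1 lower). Under the same setting Bcl2a1d (-0.68), Hbb-bs (-1.37) and Hspd1 (-0.0044) turned. Without the cell with most UMIs of a gene, the erythroid list moved to 0.24, and Ccl4 (-1.44), Hba-a1 (-0.25) and Hbb-bs (-1.95) turned. As a mean over cells, Gzma turned to -0.044. Other than where construction removes genes or cells, the cause was not tested.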
